A study of Mus musculus with 14 samples.

Results

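The genes described here are 40 genes of DNA replication and the S phase of the cell cycle, measured in mouse skeletal muscle during growth under overload. They were taken by name from the array annotation: a probe set belongs to a gene where the annotation gives that gene's symbol alone. All 40 were found, on 43 of the 35557 probe sets of the array, and they make up 40 of the 19938 genes tested. No filter on low values was used, so no gene of the 40 was lost.

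RNA came from the plantaris, a small calf muscle, of male C57BL/6J mice that were 25 months old. The gastrocnemius and soleus had been removed by surgery (synergist ablation), which leaves the plantaris to carry their load. The 7 groups are days 0, 1, 3, 5, 7, 10 and 14 of overload, each with 2 Affymetrix Mouse Gene 1.0 ST arrays, an array type that reads many probes along a gene. On each day the left plantaris muscles of 6 animals were pooled for the first array and the right ones for the second. No array is labelled as sham-operated, so effects of the surgery and of the load cannot be told apart. Each day is another set of animals, and the left and right pool were taken to come from the same 6. Nothing separates animals within a pool, so the spread behind the p-values is that of sides and arrays and not of animals. Genes made by muscle fibres were bright on all 14 arrays, with Ckm, the muscle creatine kinase, between 13.35 and 14.26 on the log2 scale. The muscle is a mixture of cells, and more cells of a type cannot be told apart from more RNA per cell.

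A cell copies its genome once per division. In G1 the origin recognition complex, with Cdc6 and Cdt1, loads the ring of Mcm subunits onto DNA. At the start of S phase, kinases driven by cyclin E, together with Mcm10, Cdc45 and the GINS complex, turn that ring into a running helicase. Polymerases with the Pcna clamp then copy the strands from deoxynucleotides made by ribonucleotide reductase and thymidylate synthase. Many of these genes are switched on together by E2F transcription factors when a resting cell re-enters the cycle. Adult muscle fibres do not divide, so such genes in muscle are known from satellite cells, fibroblasts, endothelial cells and white blood cells.

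By their median the replication genes were high on days 3, 5 and 7 and came part of the way back by day 14. Single genes differed, with log2 differences from day 0 between -0.87 and 1.19 on day 14. In the fit over all genes (limma, adjusted p under 0.05, called higher or lower below), 10 of the 40 exceeded day 0 on day 1 and 4 lay under it. Over all 19938 genes, 22.3% were higher and 22.6% lower in that comparison. On day 3, 37 were higher and 0 lower, against 24.1% and 26.6% of all genes. On day 5, 38 were higher and 2 lower (26.4% and 33.7% of all genes), and on day 7, 38 were higher and 1 lower (26.6% and 36.3%). On day 10 the counts were 32 and 2 (25.9% and 34.3% of all genes), and on day 14 they were 15 and 6 (22.9% and 30.5%). On day 1 the higher share of the 40 genes was thus near the background and the lower share under it, and on days 3 to 10 the higher share lay far above the background.

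The median difference of the 40 genes from day 0 was 0.15 on day 1 (0.062 between the left pools alone and 0.24 between the right) and 0.87 on day 3 on the log2 scale. It was 0.95 on day 5, 0.97 on day 7, 0.55 on day 10 and 0.20 on day 14. The median over all 19938 genes was 0.04 on day 1, -0.07 on day 3, -0.12 on day 5, -0.14 on day 7, -0.13 on day 10 and -0.11 on day 14. This all-gene median moved by more than 0.1 from day 5 on. Over the same days the median signal of an array rose, from 8.29 and 8.25 on day 0 to 8.42 and 8.41 on day 7. The differences given here are not shifted, and which centring is right was not tested. With each array shifted to set the all-gene median to 0, 24 of the 40 genes were higher and 4 lower on day 14, in place of 15 and 6. With equal array medians the counts were 13 and 8. Called differences past 2-fold upward were found for 1 of the 40 on day 1, 16 on day 3, 19 on day 5, 19 on day 7, 10 on day 10 and 1 on day 14. Over all 19938 genes these counts were 980, 1513, 1753, 1709, 1614 and 1209. On days 1 and 14 the share of the 40 genes was thus below that of all genes. All 40 differed between days in the moderated F test, as did 79.5% of all genes.

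**Figure D1:**
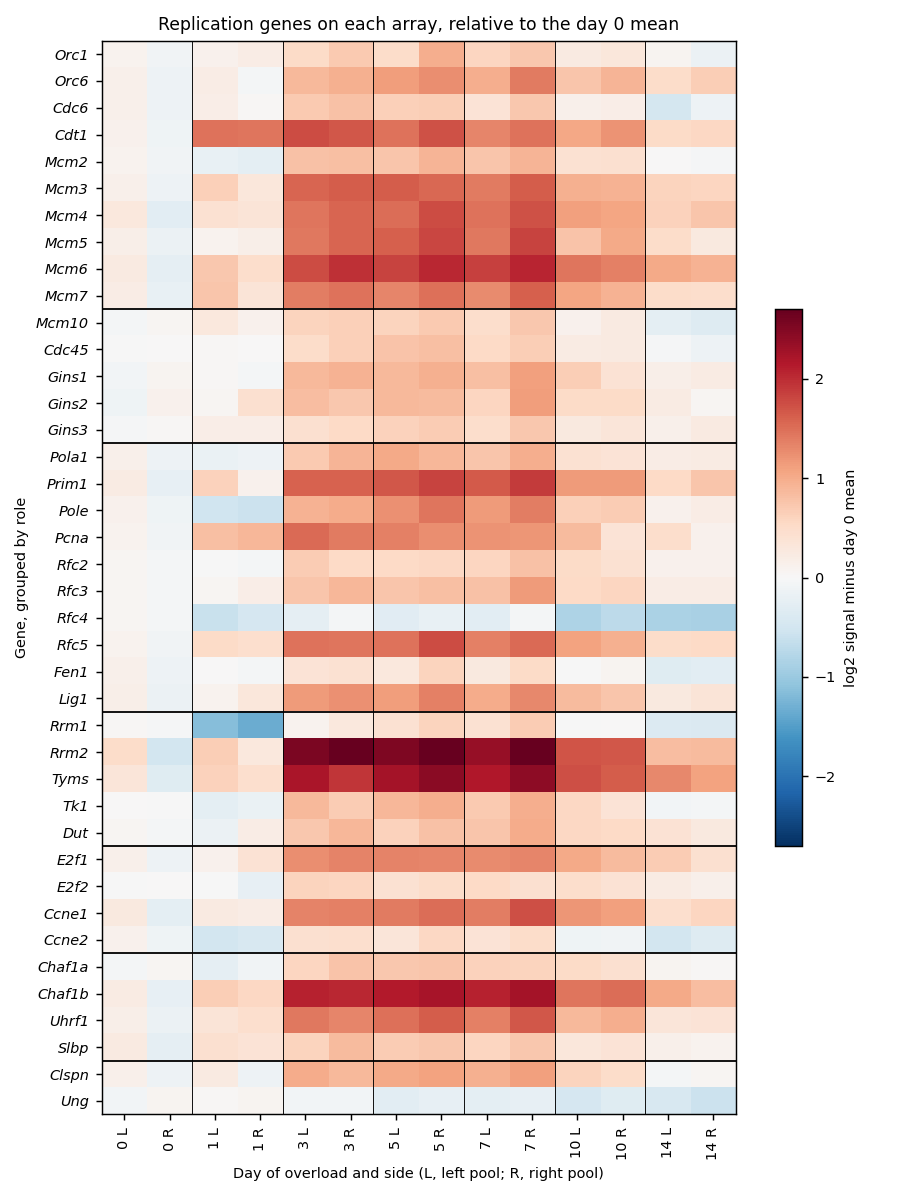
Each row is 1 of the 40 replication genes, grouped by role with black lines between roles, and each column is 1 of the 14 arrays; colour is the log2 signal minus the gene's day 0 mean. Nearly every row is red from day 3 to day 7, while Rfc4 and Ung are not, and Rrm1, Pole, Rfc4 and Ccne2 are blue on day 1.

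The day of the highest mean was day 5 for 21 genes, day 7 for 11 and day 3 for 6. Day 0 was the highest day of Rfc4 and day 1 that of Ung. Day 0 was the lowest day for 22 genes, day 1 for 10 and day 14 for 8. In all, 32 genes were higher on each of days 3, 5, 7 and 10, and 15 also on day 14. Higher on all 6 days were 8 genes: Cdt1, Mcm3, Mcm6, Mcm7, Rfc5, Tyms, Chaf1b and Uhrf1. The share of all genes with such joint calls is not given here. All these comparisons share the day 0 arrays, so calls on several days are not independent.

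The promoters of the 40 genes were searched for the letters that E2F factors are known to bind. The genes were chosen by name from a class that E2F factors are known to switch on. The shares below therefore describe the list, and a cause of the rise was not tested. RefSeq windows of the build GRCm38.p6, from 250 bases before to 50 bases after each annotated start, were given for 34 of the 40 genes. Mcm4, Gins1, Gins2, Pole, Rfc2 and Ccne2 have no entry. The words searched, on both strands, were TTTGGCGC, TTTCCCGC, TTTGCCGC and TTTCGCGC, and a pair of them can overlap in 1 stretch. At least 1 of these was found in 14 of the 34 genes (41.2%): Orc1, Cdc6, Cdt1, Mcm3, Mcm5, Mcm6, Mcm7, Gins3, Pola1, Rfc3, Lig1, E2f2, Uhrf1 and Clspn. Over the windows of the 15614 tested genes in the table the share was 3.48%, and over all 27025 genes listed there it was 2.60%. With the first T dropped (7 letters), the words were found in 61.8% of the replication genes and 14.7% of the tested genes.

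The following stretches were cut so as to hold no base of the gene as annotated. Mcm5, Chaf1b and Ung have an annotated gene start before the start that centres the search window, so their stretches are shorter (159, 199 and 131 bases) and stop before that window start; a CCAAT box of Mcm5 at 22 bases before it is not in the stretch shown. Capitals mark the 8-letter E2F words and the CCAAT box in either direction. Mcm5 and Mcm6 are shown as helicase genes with overlapping E2F words, and Rfc3 as a clamp loader gene with a word close to its start.
Mcm5 (chr8:75109309-75109467, plus strand): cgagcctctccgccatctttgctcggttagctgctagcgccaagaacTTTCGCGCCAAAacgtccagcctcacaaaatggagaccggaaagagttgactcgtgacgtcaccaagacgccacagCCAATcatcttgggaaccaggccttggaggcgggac
Mcm6 (chr1:128359706-128359905, minus strand): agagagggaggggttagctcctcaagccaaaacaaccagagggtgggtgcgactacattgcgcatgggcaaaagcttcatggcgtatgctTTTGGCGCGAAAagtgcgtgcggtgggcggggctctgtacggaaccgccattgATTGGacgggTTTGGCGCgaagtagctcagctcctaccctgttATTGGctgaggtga
Rfc3 (chr5:151651209-151651408, minus strand): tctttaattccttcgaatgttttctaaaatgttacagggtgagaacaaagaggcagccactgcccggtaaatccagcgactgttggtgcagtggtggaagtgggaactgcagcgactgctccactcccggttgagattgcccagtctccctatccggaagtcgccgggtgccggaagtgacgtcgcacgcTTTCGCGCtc
Rrm2 and Chaf1b had 2 of the 3 largest rises on day 3 and hold none of the 8-letter words in the window.
Rrm2 (chr12:24708054-24708253, plus strand): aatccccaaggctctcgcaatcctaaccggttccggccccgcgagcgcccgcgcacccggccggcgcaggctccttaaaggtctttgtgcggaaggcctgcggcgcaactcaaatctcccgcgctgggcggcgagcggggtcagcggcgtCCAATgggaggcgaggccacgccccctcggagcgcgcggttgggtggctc
Chaf1b (chr16:93883701-93883899, plus strand): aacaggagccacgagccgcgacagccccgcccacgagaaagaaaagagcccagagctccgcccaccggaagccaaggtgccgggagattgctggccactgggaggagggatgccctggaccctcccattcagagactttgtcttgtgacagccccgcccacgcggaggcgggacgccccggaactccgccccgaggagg
Rfc4 and Ung, which were not higher on any day, have none of these words or boxes in the stretches shown. The stretch of Chaf1b, which rose, has none either. Rfc4 holds a 7-letter word 11 bases after the start that centres its search window. Such words also lie 235 bases before that start in Rrm2, and 227 bases before and 26 bases after it in Chaf1b. All of these are outside the stretches shown.
Rfc4 (chr16:23127731-23127930, minus strand): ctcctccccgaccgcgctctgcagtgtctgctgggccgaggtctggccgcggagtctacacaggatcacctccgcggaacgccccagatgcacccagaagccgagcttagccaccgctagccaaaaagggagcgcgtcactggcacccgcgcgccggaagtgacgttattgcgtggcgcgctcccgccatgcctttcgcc
Ung (chr5:114130235-114130365, plus strand): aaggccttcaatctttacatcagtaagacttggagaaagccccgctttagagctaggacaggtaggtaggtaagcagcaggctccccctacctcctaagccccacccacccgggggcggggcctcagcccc

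Genes with an 8-letter word had a median difference from day 0 of 1.06 on day 3 (14 genes, from 0.49 to 1.87), and those without had 0.80 (20 genes, from -0.16 to 2.62). The ranges overlap over most of their length, and these medians are a description with no test. The CCAAT box was in 61.8% of the replication genes and in 41.7% of tested genes. The word TTTGAA, the core of the CHR element of late cell cycle genes, was in 14.7% of the replication genes and in 17.3% of tested genes. In 29 genes of mitosis and cytokinesis with an entry the E2F words were found in 3.45% and TTTGAA in 72.4%. A match shows the letters only. The median GC content of the windows was 59.2% for the replication genes, 59.0% for the mitosis genes, 57.3% for tested genes and 52.7% for all genes in the promoter list.

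The origin loading genes, Orc1, Orc6, Cdc6, Cdt1 and Mcm2 to Mcm7, were all higher on days 3, 5 and 7 (24.1%, 26.4% and 26.6% of all genes). Their medians on these days were 1.46, 1.49 and 1.42. On day 1 the group had 4 higher and 0 lower genes of 10 (22.3% and 22.6% of all genes). On day 14 it had 6 higher and 0 lower (22.9% and 30.5%). Cdt1, which brings the Mcm ring to the origin, had the largest of these day 1 rises. Its log2 signal on the left and right array was 8.17 and 7.95 on day 0, 9.52 and 9.50 on day 1, and 9.83 and 9.74 on day 3. It was 9.52 and 9.77 on day 5, 9.37 and 9.53 on day 7, 9.11 and 9.26 on day 10, and 8.58 and 8.61 on day 14. Every later array thus lay above both day 0 arrays. The rise on day 1 was 1.45 ± 0.11 (standard error, n = 2 arrays a day; adjusted p = 3.1e-07), which is 2.74-fold, and from day 1 to day 3 a further 0.27 was not called. On day 14 Cdt1 was still 0.54 ± 0.11 higher.

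Mcm6 had the largest rise of the helicase subunits. It stood at 8.06 and 7.59 on day 0, 8.56 and 8.30 on day 1, 9.59 and 9.81 on day 3, and 9.66 and 9.87 on day 5. On day 7 it stood at 9.68 and 9.87, on day 10 at 9.26 and 9.19, and on day 14 at 8.84 and 8.76. All later arrays lay above day 0. The rise was 0.60 ± 0.15 on day 1, 1.87 ± 0.15 on day 3, 1.95 ± 0.15 on day 7 and 0.98 ± 0.15 on day 14 (adjusted p = 1.5e-04 on day 14).

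The other subunits of the ring differed in size. On day 3, Mcm3, Mcm4, Mcm5 and Mcm7 rose by 1.60, 1.51, 1.50 and 1.43, with standard errors of 0.12 to 0.16. Mcm2 rose by 0.79 ± 0.09 on that day and by 0.84 ± 0.09 on day 7. On day 1, Mcm2 stood at 9.04 and 8.96 against 9.32 and 9.15 on day 0, a difference of -0.23 ± 0.09 that was not called (adjusted p = 0.051). On day 14 its difference was -0.01, while Mcm3, Mcm4 and Mcm7 were still higher, by 0.60, 0.68 and 0.49. The difference between Mcm2 and the other subunits was not tested. Values of different genes rest on different probes, so their levels are not set against each other here.

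Of the other loading genes, Orc6 rose by 0.92 ± 0.14 on day 3 and 1.19 ± 0.14 on day 7 and was 0.58 ± 0.14 higher on day 14. Orc1, the largest subunit of the origin complex, was 0.62 ± 0.14 higher on day 3 and at -0.04 on day 14. Cdc6, an ATPase that acts with the origin complex, was 0.75 ± 0.14 higher on day 3, 0.55 ± 0.14 on day 7 and at -0.30 on day 14 (adjusted p = 0.09). Its day 7 call was lost when the right pool of day 0 (0.40) or of day 7 (0.37) was left out.

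**Figure D2:**
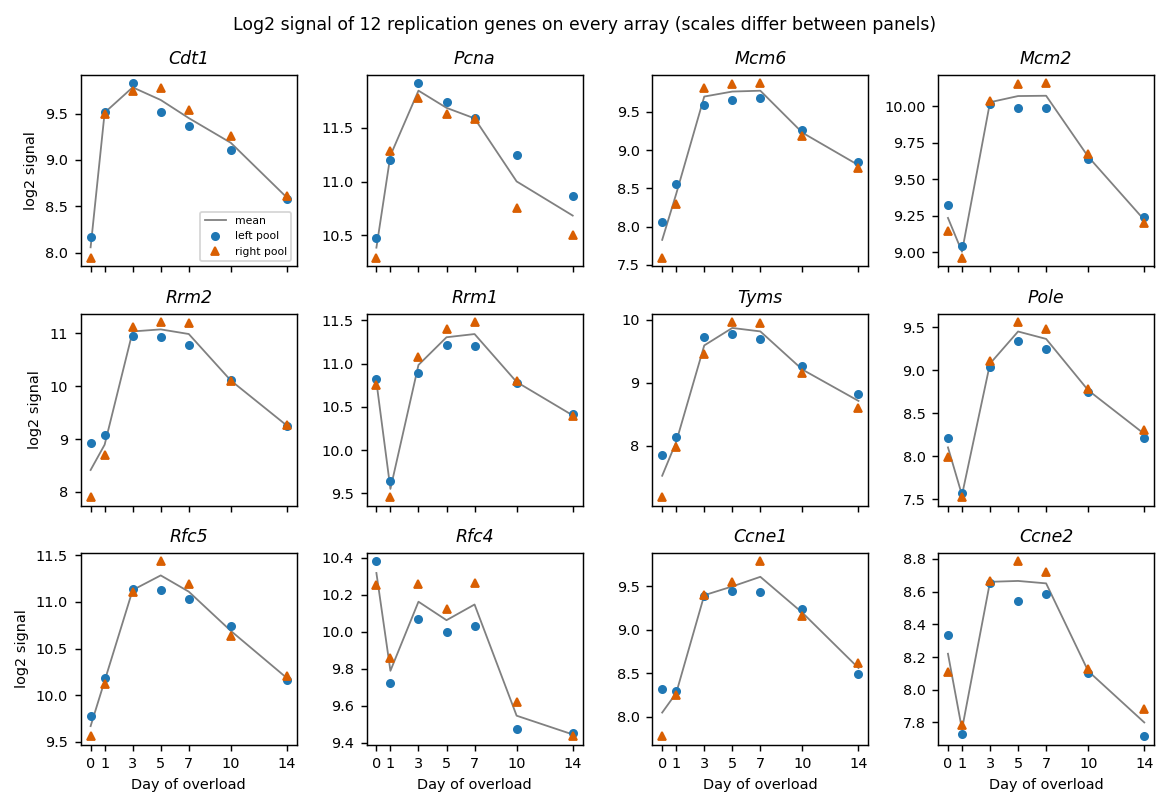
Log2 signal (vertical axis, scales differ between panels) against the day of overload for 12 of the genes; circles are left pools, triangles right pools and the line joins the means of both. Cdt1 and Pcna are already high on day 1, Rrm1, Pole, Rfc4 and Ccne2 dip on day 1, and the day 0 circles of Rrm2 and Tyms lie above the triangles.

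Of the genes that start the helicase, Mcm10, Cdc45, Gins1, Gins2 and Gins3, 0 of 5 were called on day 1 (22.3% of all genes higher, 22.6% lower). All 5 were higher on days 3, 5 and 7 (24.1%, 26.4% and 26.6% of all genes). Their medians on these days were 0.63, 0.79 and 0.60, below those of the loading genes. Gins1, a subunit of the GINS complex, stood at 6.84 and 6.97 on day 0, 7.78 and 7.83 on day 3, and 7.72 and 8.02 on day 7. Its rise was 0.90 ± 0.11 on day 3 and 0.97 ± 0.11 on day 7. Gins2 and Gins3 rose by 0.78 ± 0.16 and 0.49 ± 0.09 on day 3, and Cdc45, which joins the ring and GINS, by 0.57 ± 0.08. Mcm10, a scaffold that binds the helicase, rose by 0.63 ± 0.10 on day 3 but was 0.31 ± 0.10 lower than day 0 on day 14 (adjusted p = 0.021). That last call was lost when the right pool of day 0 (-0.25) or of day 14 (-0.26) was left out. On day 10 the call of Cdc45 ended without either pool of day 0 or of day 10 (0.22 to 0.25). On the same day the call of Gins2 ended without the left pool of day 0 (0.40) or either pool of day 10 (0.52 for both), and that of Gins3 without the left pool of day 0 (0.26) or the right pool of day 10 (0.27).

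Of the 10 genes of the synthesis machinery, 9 were higher on each of days 3, 5 and 7 (24.1%, 26.4% and 26.6% of all genes). On day 1, 2 were higher and 2 lower, close to the shares over all genes (22.3% and 22.6%). Pcna, the sliding clamp of the polymerases, stood at 10.48 and 10.29 on day 0, 11.20 and 11.28 on day 1, and 11.92 and 11.78 on day 3. It then stood at 11.75 and 11.63 on day 5, 11.59 and 11.58 on day 7, 11.25 and 10.76 on day 10, and 10.86 and 10.50 on day 14. The arrays of day 1 lay above both of day 0, and day 3 was the highest day. Pcna rose by 0.86 ± 0.15 on day 1 and 1.46 ± 0.15 on day 3 (adjusted p = 3.6e-06), and its 0.30 ± 0.15 on day 14 was not called. Without the right pool of day 14 that difference was 0.48 and was called, and without the left pool of day 10 the day 10 difference was 0.37 and was not. A second probe set of Pcna gave 0.86 on day 1 and 1.46 on day 3. The 2 sets differed by at most 0.021 on any array, so the second may not be an independent reading.

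Pole, the catalytic subunit of the leading strand polymerase, went the other way on day 1. It stood at 8.21 and 7.99 on day 0, 7.57 and 7.53 on day 1, and 9.04 and 9.11 on day 3. Both arrays of day 1 lay below day 0, and both of day 3 above it. The fall on day 1 was -0.55 ± 0.10 (adjusted p = 6.8e-04), and the rise was 0.97 ± 0.10 on day 3 and 1.35 ± 0.10 on day 5. Prim1, the primase that starts each new strand, rose by 1.59 ± 0.17 on day 3 and 1.78 ± 0.17 on day 7, and Pola1, the polymerase that works with it, by 0.81 ± 0.11 and 0.86 ± 0.11. Pola1 was not called on day 10 without the right pool of day 0 (0.26 in place of 0.40). Lig1, the ligase that joins Okazaki fragments, rose by 1.19 ± 0.13 on day 3. Fen1, the nuclease that trims the flaps of these fragments, rose by 0.39 ± 0.12 on day 3 (adjusted p = 0.014) and was 0.30 ± 0.12 lower on day 14 (adjusted p = 0.047). The 3 rises of Fen1 on days 3, 5 and 7 were not called without the right pool of day 0 (0.26 to 0.31) or without the right pool of the day itself (0.27 to 0.37). Its day 14 call ended without the left pool of day 0 (-0.17), without either pool of day 14 (-0.28 and -0.33), and when either pool of day 1, 3 or 10 was left out.

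The 4 clamp loader genes among the 40 had different courses. Rfc5 rose by 0.49 ± 0.11 on day 1, 1.46 ± 0.11 on day 3 and 1.62 ± 0.11 on day 5, and was 0.52 ± 0.11 higher on day 14. Rfc2 and Rfc3 rose by 0.61 ± 0.09 and 0.83 ± 0.11 on day 3 and were at 0.12 and 0.20 on day 14, neither called. Rfc4 stood at 10.38 and 10.25 on day 0, 9.72 and 9.86 on day 1, 10.07 and 10.26 on day 3, and 10.00 and 10.12 on day 5. It stood at 10.03 and 10.26 on day 7, 9.47 and 9.62 on day 10, and 9.45 and 9.44 on day 14. No later array exceeded the left array of day 0, and on days 1, 5, 10 and 14 both arrays lay below both of day 0. Rfc4 fell by -0.53 ± 0.10 on day 1, -0.77 ± 0.10 on day 10 and -0.87 ± 0.10 on day 14 (adjusted p = 1.9e-05). From day 1 to day 3 it rose by 0.37 ± 0.10 (adjusted p = 0.012), as the other 3 did (0.65 to 0.97). The small day 5 difference of Rfc4, -0.25 ± 0.10, was called (adjusted p = 0.048) but ended without either pool of days 0, 5, 10 or 14 (-0.19 to -0.32), and with the all-gene median set to 0.

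Among the genes that supply deoxynucleotides, Rrm2 and Tyms had the largest rises of the replication genes on days 3, 5 and 7. Rrm1 had the largest fall on day 1. The group as a whole did not rise most. Its median on day 3 was 0.82, between those of the loading genes (1.46) and the helicase starting genes (0.63). Rrm2, the small subunit of ribonucleotide reductase and the one made in S phase, stood at 8.92 and 7.91 on day 0, 9.08 and 8.71 on day 1, and 10.95 and 11.11 on day 3. It stood at 10.93 and 11.20 on day 5, 10.78 and 11.19 on day 7, 10.12 and 10.09 on day 10, and 9.24 and 9.26 on day 14. The pools of day 0 differed by 1.01, so that day 1 overlapped day 0, while every array from day 3 on lay above both. Rrm2 rose by 2.62 ± 0.25 on day 3 (6.13-fold, adjusted p = 2.2e-06), 2.65 ± 0.25 on day 5 and 2.57 ± 0.25 on day 7, and was 0.84 ± 0.25 higher on day 14. The day 1 difference of 0.48 ± 0.25 was not called, and became 0.98 and called without the left pool of day 0. The day 14 call was lost when the right pool of day 0 (0.33) or of day 14 (0.83) was left out.

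Rrm1, the large subunit of the same enzyme, started high and fell first. It stood at 10.82 and 10.76 on day 0, 9.64 and 9.46 on day 1, 10.89 and 11.08 on day 3, and 11.21 and 11.40 on day 5. It stood at 11.21 and 11.48 on day 7, 10.78 and 10.80 on day 10, and 10.41 and 10.39 on day 14. Day 1 lay more than 1 log2 unit below day 0 on both sides, and days 5 and 7 lay above it. The fall on day 1 was -1.24 ± 0.11 (adjusted p = 1.3e-06), the largest of the 40 genes. The rise was 0.55 ± 0.11 on day 7, and on day 14 Rrm1 was at -0.39 ± 0.11 (adjusted p = 0.0092).

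Tyms, thymidylate synthase, stood at 7.86 and 7.19 on day 0, 8.15 and 7.98 on day 1, 9.72 and 9.46 on day 3, and 9.78 and 9.96 on day 5. It stood at 9.69 and 9.94 on day 7, 9.27 and 9.15 on day 10, and 8.82 and 8.60 on day 14. Every later array lay above both day 0 arrays. Tyms rose by 2.34 ± 0.18 on day 5 (5.08-fold) and on day 14, at 1.19 ± 0.18 (adjusted p = 1.7e-04), had the largest difference of the 40 genes. Tk1, the thymidine kinase of the salvage route, rose by 0.78 ± 0.10 on day 3 and was at -0.07 on day 14. A second Tk1 probe set gave 0.79 on day 3 and 1.23 on day 7, where the first gave 0.85. Dut, which keeps uracil out of DNA by breaking down dUTP, rose by 0.82 ± 0.12 on day 3 and was 0.33 ± 0.12 higher on day 14. That last call (adjusted p = 0.04) ended without either pool of day 0, 10 or 14 (0.27 to 0.39).

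Among the regulators of S phase entry, E2f1, an activating E2F factor, rose by 1.30 ± 0.12 on day 3 and was 0.56 ± 0.12 higher on day 14. E2f2, a close relative, rose by 0.59 ± 0.08 on day 3 and was not called on day 14 (0.18). It was called there in the fits without either pool of day 1 (0.18) and with the all-gene median set to 0 (0.29). Both cyclin E genes were higher on days 3, 5 and 7, but from different sizes of change. Ccne1 stood at 8.32 and 7.78 on day 0, 8.29 and 8.25 on day 1, 9.39 and 9.40 on day 3, and 9.43 and 9.79 on day 7. Ccne2 stood at 8.33 and 8.11 on day 0, 7.73 and 7.78 on day 1, 8.65 and 8.67 on day 3, and 8.58 and 8.72 on day 7. On day 1 Ccne1 lay within the range of day 0 and Ccne2 below it. Ccne1 rose by 1.35 ± 0.15 on day 3 and 1.56 ± 0.15 on day 7, and was 0.51 ± 0.15 higher on day 14. Ccne2 was at -0.46 ± 0.10 on day 1 (adjusted p = 0.0024), rose by 0.44 ± 0.10 on day 3, and was at -0.42 ± 0.10 on day 14 (adjusted p = 0.0044). Without the left pool of day 0 the day 1 difference of Ccne1 was 0.49 and was called, as was that of E2f1 at 0.38; without the left pool of day 1 E2f1 was called too (0.39).

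The chromatin genes of S phase rose as well, with 3 of 4 higher on day 1 (22.3% of all genes). On days 3, 5, 7 and 10, 4 of 4 were higher (24.1%, 26.4%, 26.6% and 25.9% of all genes). Chaf1b, the middle subunit of the chromatin assembly factor that puts histones on new DNA, stood at 7.51 and 7.07 on day 0, 7.96 and 7.85 on day 1, and 9.37 and 9.33 on day 3. It stood at 9.43 and 9.52 on day 5, 9.37 and 9.53 on day 7, 8.75 and 8.81 on day 10, and 8.32 and 8.12 on day 14. No later array overlapped day 0. The rise was 0.61 ± 0.12 on day 1, 2.06 ± 0.12 on day 3, 2.18 ± 0.12 on day 5 (adjusted p = 2.2e-08) and 0.93 ± 0.12 on day 14. Chaf1a, the large subunit of the same complex, rose by 0.68 ± 0.08 on day 3 and was at -0.16 and 0.05 on days 1 and 14, neither called. Uhrf1, which keeps DNA methylation on the copied strand, rose by 1.37 ± 0.12 on day 3 and 1.56 ± 0.12 on day 5. Slbp, which binds the stem loop of histone mRNA, rose by 0.73 ± 0.13 on day 3, where a second Slbp probe set gave 0.69. Its day 10 call (0.34 ± 0.13, adjusted p = 0.044) was lost with the right pool of day 0 left out (0.10), and in all leave-one-out fits but those without the left pool of day 0 or a pool of day 3.

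Clspn, which links stalled forks to the checkpoint kinase, rose by 0.94 ± 0.12 on day 3 and 1.05 ± 0.12 on day 5. Ung, the glycosylase that removes uracil from DNA, did not rise. It stood at 8.21 and 8.35 on day 0, 8.31 and 8.35 on day 1, 8.20 and 8.21 on day 3, and 7.98 and 8.05 on day 5. It stood at 8.02 and 8.05 on day 7, 7.82 and 7.94 on day 10, and 7.85 and 7.70 on day 14. From day 3 on, both arrays of each day lay below both of day 0, by little on day 3. Ung was at -0.26 ± 0.08 on day 5, -0.24 ± 0.08 on day 7, -0.40 ± 0.08 on day 10 and -0.50 ± 0.08 on day 14 (adjusted p = 2.3e-04). The calls of days 5 and 7 were lost with the right pool of day 0 left out (-0.19 and -0.17), without the left pool of the day itself (-0.23 for both), and with the all-gene median set to 0.

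**Figure D3:**
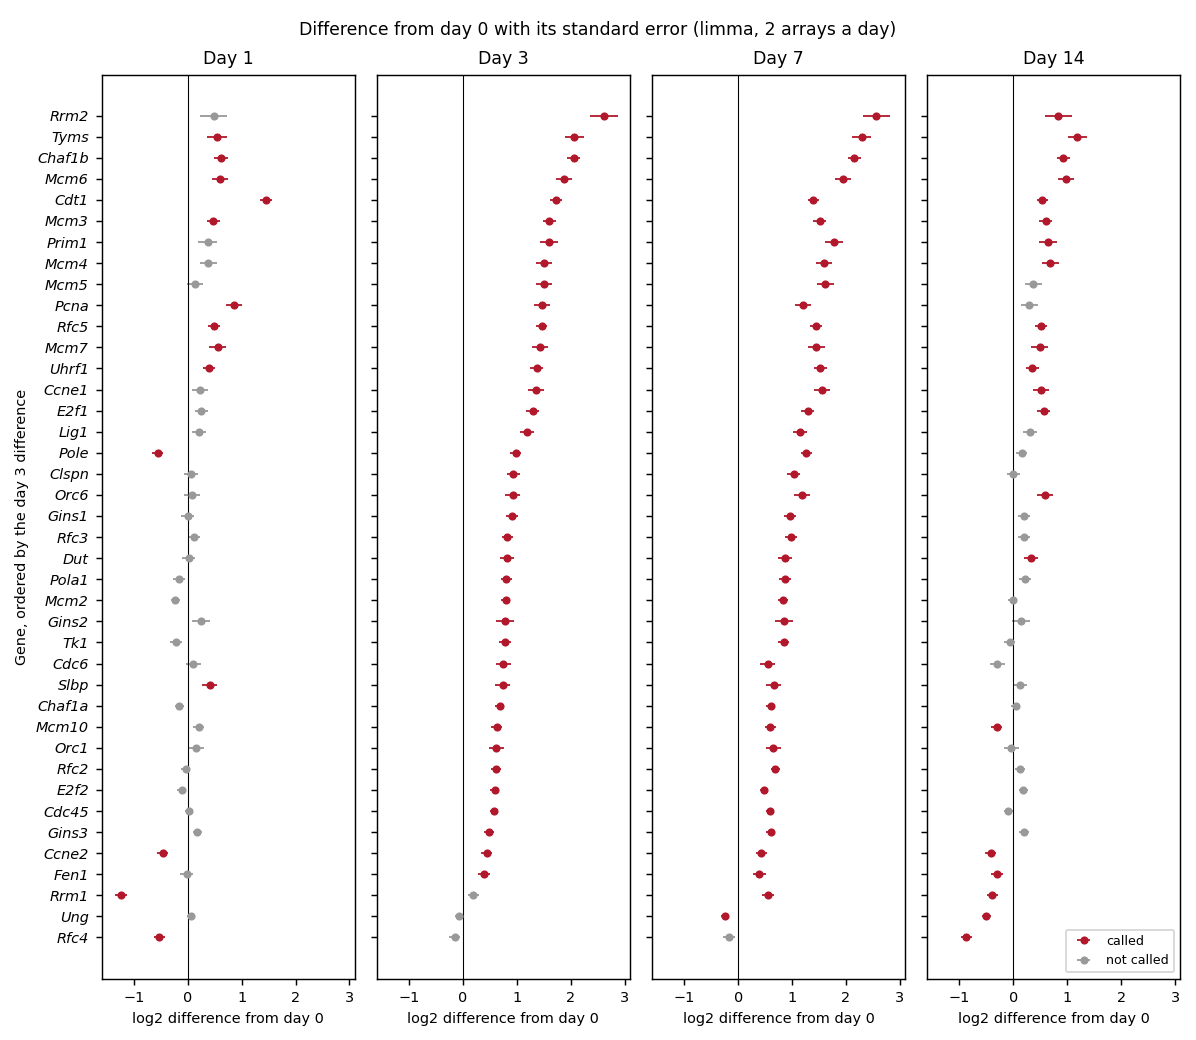
Log2 difference from day 0 (horizontal axis) with its standard error from limma for each of the 40 genes on days 1, 3, 7 and 14; red points were called at an adjusted p under 0.05 and grey points were not. On day 3 all but Rrm1, Ung and Rfc4 are called higher, while on day 1 26 of the points are grey and on day 14 19 are.

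On day 1 the genes called higher were Cdt1, Pcna, Chaf1b, Mcm6, Mcm7, Tyms, Rfc5, Mcm3, Slbp and Uhrf1, and those called lower were Rrm1, Pole, Rfc4 and Ccne2. The higher calls rest in part on the day 0 pair. With the right pool of day 0 left out, 4 genes were higher, since Mcm3, Mcm6, Mcm7, Slbp, Tyms and Uhrf1 were no longer called (0.33, 0.37, 0.36, 0.16, 0.20 and 0.24). Without the left pool of day 0, 15 were higher, Mcm4 at 0.67 and Prim1 at 0.60 among them. Without the left pool of day 1, 6 were higher, since Mcm3, Mcm6, Mcm7, Slbp and Tyms were lost (0.30, 0.47, 0.36, 0.38 and 0.45). Without its right pool Slbp, Tyms and Uhrf1 were not called (0.43, 0.62 and 0.34) while Prim1 was (0.63). The 4 lower calls were kept without either pool of day 0. Mcm2 also became lower without the right pool of day 0 (-0.32) and without either pool of day 5 or 7.

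On day 14 the 15 higher genes were, from the largest difference, Tyms, Mcm6, Chaf1b, Rrm2, Mcm4, Prim1, Mcm3, Orc6, E2f1, Cdt1, Rfc5, Ccne1, Mcm7, Uhrf1 and Dut. The 6 lower genes were Rfc4, Ung, Ccne2, Rrm1, Mcm10 and Fen1. With the right pool of day 0 left out, 8 genes were higher, since Ccne1, Dut, Mcm7, Orc6, Prim1, Rrm2 and Uhrf1 were not called (0.25, 0.28, 0.29, 0.46, 0.41, 0.33 and 0.20), and Cdc6 became lower (-0.44). Without the left pool of day 0, 18 were higher, with Lig1 (0.47), Mcm5 (0.53), Pola1 (0.35) and Slbp (0.36) added and Dut (0.37) lost. Without the right pool of day 14, the higher calls of Ccne1, Dut, Mcm7, Prim1, Rrm2 and Uhrf1 ended at 0.45, 0.385, 0.49, 0.53, 0.83 and 0.34. Without its left pool those of Dut, Mcm7 and Uhrf1 ended at 0.27, 0.48 and 0.37.

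Most of the rise took place between day 1 and day 3. In that step 37 of the 40 genes were higher and 0 lower (19.5% and 24.7% of all genes), with a median of 0.89; Ung, Cdt1 and Slbp were not called. The largest step was that of Rrm2, at 2.14. From day 3 to day 5 none of the 40 was called in either direction (4.68% and 1.90% of all genes), and from day 5 to day 7 again none (0.401% and 0.627%). From day 7 to day 10, 0 were higher and 10 lower (0.933% and 1.00% of all genes): Mcm2, Mcm3, Mcm5, Cdc45, Pole, Rfc4, Rrm1, Ccne2, Chaf1b and Uhrf1. All 40 differences in this step were below 0, with a median of -0.42. From day 10 to day 14, 0 were higher and 16 lower (3.79% and 5.11% of all genes), with a median of -0.39 and again all 40 below 0.

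The counts of the falling steps depend on single pools, more than the differences do. From day 7 to day 10 the count was 0 without the right pool of day 7, 1 without the left pool of day 10 and 0 without the right pool of day 10. From day 10 to day 14 it was 2 and 1 without the left and right pool of day 10, and 1 and 4 without the left and right pool of day 14. Largest among the called falls from day 10 to day 14 were those of Ccne1 (-0.64 ± 0.15), Cdt1 (-0.59 ± 0.11) and Uhrf1 (-0.58 ± 0.12). Rrm2 had the largest difference in both steps, -0.88 and -0.85, but was not called in either, its standard error being 0.25.

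The left and right pools of a day were not alike for these genes. On day 0 the left array was above the right for 32 of the 40, with a median right minus left difference of -0.23 and Rrm2 at -1.01. All 10 loading genes and all 10 synthesis genes were higher on the left, while all 5 helicase starting genes were higher on the right. On day 5 the right array was above the left for 35 of 40 (median 0.12), and on day 7 for 37 of 40 (median 0.24). On days 1, 3, 10 and 14 the right was above in 15, 28, 20 and 20. Over all 19938 genes the left was above for 10041 on day 0, and the right for 10342 on day 5 and 10504 on day 7. The all-gene counts with the right above were 10454, 10996, 10177 and 9010 on days 1, 3, 10 and 14. Over all days, right against left with the day as block, limma called none of the 40 higher or lower on the right, and 0.00% of all genes in either direction; 2 of the 40 had an unadjusted p under 0.05, as had 10.5% of all genes.

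Summed signals of granulocyte precursor, erythroid and white blood cell genes were also higher on the left on day 0. All 8 granule genes of granulocyte precursors were higher on the left on day 0 (median right minus left -0.85), and their summed linear signal was 14932 in the left pool against 8690 in the right, a ratio of 1.72. That ratio was 1.39 on day 1, 1.34 on day 3, 0.46 on day 5, 1.31 on day 7, 0.36 on day 10 and 0.80 on day 14. On day 7 the 8 precursor genes were thus all higher on the left, while 37 of the 40 replication genes were higher on the right. Mpo, the myeloperoxidase of these precursors, stood at 10.43 and 8.98 on day 0 and at 7.17 and 8.16 on day 10. Summed signal of erythroid genes on day 0 was 1.48 times as high on the left, and that of neutrophil genes 1.44 times. For macrophage genes it was 1.36 times, for B cell genes 1.33 times and for T cell genes 1.14 times. The same ratio was 1.05 for fibroblast genes, 1.01 for endothelial genes, 1.01 for satellite cell genes and 0.98 for fibre genes. For fibre genes it was 1.236 on day 5 and 1.125 on day 7. On these days 15 and 14 of the 15 fibre genes were higher on the left, as were 9590 and 9433 of all 19938 genes. For the 40 replication genes the ratio was 1.15 on day 0, 0.91 on day 5 and 0.85 on day 7, and for 35 mitosis genes 1.38 on day 0 and 0.81 on day 7. Their part in the replication values was not tested; no detection call is at hand, so no marker can be called absent. Without the left pool of day 0, 37, 38, 38 and 29 of the 40 genes were higher on days 3, 5, 7 and 10, and without its right pool 36, 37, 36 and 29.

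**Figure D4:**
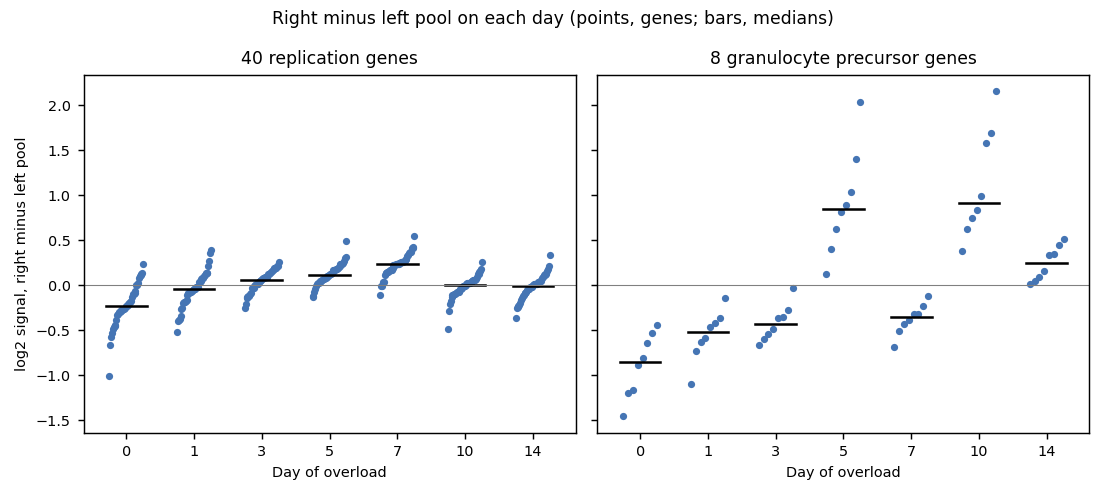
Right minus left difference in log2 signal on each day for the 40 replication genes and for 8 granulocyte precursor genes; each point is a gene and the bar is the median. The replication genes lie mostly below 0 on day 0 and mostly above 0 on day 7, and the precursor genes lie below 0 on days 0, 1, 3 and 7 and above 0 on days 5, 10 and 14.

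Other genes of replication had a smaller median. This and the next lists share no gene with the 40, and the all-gene shares to read their counts against are 24.1% (higher) with 26.6% (lower) for day 3 and 22.9% with 30.5% for day 14. Of 40 further replication genes, 24 were higher and 3 lower on day 3, with a median of 0.38. On day 14 the counts were 14 and 10, the latter under the share of all genes. Top2a, the topoisomerase that untangles copied chromosomes, was 2.74 ± 0.25 higher on day 7, Dbf4, which activates the origin kinase, 2.17 ± 0.19 on day 7, and Pole2, a partner of Pole, 2.05 ± 0.15 on day 5. Of 18 further nucleotide genes, 10 were higher and 5 lower on day 3 (median 0.45). The folate enzyme gene Mthfd2 was 1.74 ± 0.12 higher on day 1, the pyrimidine enzyme gene Cad 1.30 ± 0.09 on day 5, and the kinase gene Dck 1.24 ± 0.17 on day 3.

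Of 16 other genes of the E2F and pocket protein family, 8 were higher and 4 lower on day 3 (median 0.25), the lower count near the share of all genes. E2f8, an atypical repressing E2F, was 2.09 ± 0.15 higher on day 7. E2f6, which also represses, was -1.93 ± 0.09 on day 5, with 12.31 and 12.34 on day 0 against 10.43 and 10.37, and Tfdp2, a partner of E2F proteins, was -1.48 ± 0.10 on day 3. In 11 further chromatin genes 8 were higher and 2 lower on day 3, led by Hells (2.24 ± 0.16 on day 5), Asf1b (2.04 ± 0.13 on day 7) and Atad2 (1.93 ± 0.15 on day 5). In 20 checkpoint and repair genes 15 were higher and 1 lower on day 3. The checkpoint kinase gene Chek1 was 1.77 ± 0.18 higher and Brca2 1.16 ± 0.09 higher on day 5, and Wee1, a brake on mitotic entry, 1.14 ± 0.11 on day 7. In 12 genes of G1 control 6 were higher and 1 lower on day 3, with Ccnd1, cyclin D1, at 1.98 ± 0.09, Cdk6 at 1.93 ± 0.14, and Cdk2 at 1.61 ± 0.12 on day 7.

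Mitosis genes had larger medians than the replication genes on days 3 to 14. On day 1, 0 of 35 mitosis and cytokinesis genes were higher and 5 lower, with a median of -0.17, where 22.3% of all genes were higher and 22.6% lower. The 10 higher of the 40 replication genes on that day lie near that share. On days 3, 5 and 7 all 35 were higher, with medians of 1.78, 2.11 and 2.10. On day 10, 34 were higher and 1 lower (median 1.52), and on day 14, 25 and 1 (median 0.56). Bub1, a spindle checkpoint kinase, was 3.06 ± 0.28 higher on day 5, Ccna2, cyclin A2, 2.96 ± 0.28 and Prc1, of the central spindle, 2.93 ± 0.21. The day 0 pools of these genes differed too, with Bub1 at 7.22 on the left and 5.97 on the right. The difference in size between lists was not tested, and each comparison here shares the day 0 arrays.

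Genes of several cell types were called over the same days. Over all genes, 22.3% were higher on day 1, and between 22.9% and 26.6% on each later day. All 15 macrophage genes were higher on each of days 3 to 14, with medians of 2.79, 2.79, 2.54, 2.25 and 1.89, and their summed linear signal went from 8419 and 11462 on day 0 to 59398 and 61069 on day 3. Neutrophil genes were higher on day 1 (8 of 8, median 2.62) and 0 of 8 were higher on day 14. Of 10 satellite cell and myoblast genes, 3, 5, 8, 9, 9 and 6 were higher on days 1, 3, 5, 7, 10 and 14, with 2 lower on day 1 and 1 on day 3. Their medians were 0.02, 0.22, 0.70, 0.81, 0.74 and 0.43, and the day 1 count is near the share of all genes. Of 9 fibroblast genes, 6 were higher on day 3, 7 on each of days 5, 7 and 10, and 9 on day 14 (median 1.61), and of 10 endothelial genes 3, 7, 7, 7 and 7 were higher on days 3 to 14 and 3, 3, 3, 3 and 2 lower, the day 3 counts near the shares of all genes in both directions. On day 1, 3 fibroblast genes were higher and 5 lower, and 1 endothelial gene was higher and 6 lower (22.6% of all genes lower). Fibre genes were lower, with 13 of 15 on day 3 and a median of -0.75. In which of these cells the replication genes were made was not tested.

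**Figure D5:**
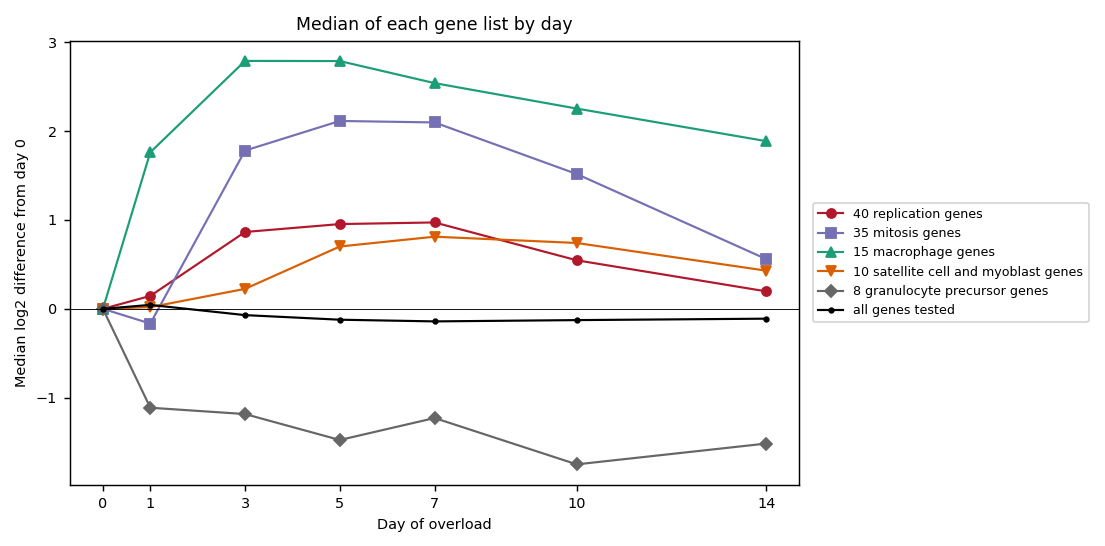
Median log2 difference from day 0 (vertical axis) of 5 gene lists and of all genes tested, against the day of overload. The 40 replication genes reach 0.97 on day 7 and are at 0.20 on day 14, the mitosis genes start below 0 on day 1 and reach 2.11 on day 5, the macrophage genes stay at 1.89 on day 14, and the granulocyte precursor genes lie below 0 on all days.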

How the data were processed

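Per the labels, total RNA from pooled plantaris muscles was hybridised to 14 arrays, 2 on each of 7 days; sources disagree on the RNA input. The values deposited by the authors are log2 signals per probe set. The normalization method: not given in the sources used here. The submitters' processing notes name Partek with no version. Of 35557 probe sets, 21789 carry 1 symbol, 1621 several and 12147 none. The probe set with the highest mean stood for a gene, which gave 19938 genes. All 14 arrays were fitted with limma 3.58.1 in R 4.3.3, the day as group (7 residual degrees of freedom, prior 4.95). P-values are two-sided, with Benjamini-Hochberg adjustment across the 19938 genes. The fit was tested on simulated data. The 40 genes, the other lists and the tests were chosen with earlier results of these data known, so no test of a list was made. All 40 are named; of each other pathway list the text names the 3 genes with the largest called difference from day 0. Promoters are from RefSeq, read with Python 3.11.15. Alternatives were other normalizations, filters and fits, and each array left out.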

Additional observations from a re-analysis of the deposited data

How the results depend on the processing

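Over 23 settings, 5325 of 5514 differences of single genes from day 0 stayed on their side of the threshold, 55 gained a call, 134 lost one and none changed its sign while called. Counts are of the 40 replication genes. With equal array medians 2 were lower on day 7. With the all-gene median set to 0, 0 were lower on day 5 and 0 on day 7, 24 were higher on day 14, and 3 rose from day 3 to day 5. Without the 25% of genes with the lowest signal (which drops Orc1), 1 rose from day 3 to day 5 and 17 fell from day 7 to day 10. With probe sets of 1 gene averaged 1 rose from day 3 to day 5; with an intensity trend and robust estimation 1 rose in that step and 16 fell from day 7 to day 10. At an adjusted p under 0.01, 6 were higher on day 1, 0 lower on day 5, 0 lower on day 7, 0 fell from day 7 to day 10 and 1 from day 10 to day 14. In fits of only the 4 arrays compared, 1 was lower on day 5, 0 on day 7, and 4 fell from day 7 to day 10; these fits have fewer arrays. With each array left out in turn, 4 to 15 were higher on day 1, 8 to 18 higher on day 14, 0 to 2 lower on day 5 and 0 to 1 lower on day 7. In the same fits 0 to 1 rose from day 3 to day 5, 0 to 15 fell from day 7 to day 10 and 1 to 21 from day 10 to day 14. Where no construction is named, the cause was not tested.

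In the left pools alone the median difference from day 0 was 0.062, 0.84, 0.92, 0.784, 0.56 and 0.18 on days 1, 3, 5, 7, 10 and 14. In the right pools alone it was 0.24, 1.03, 1.05, 1.17, 0.60 and 0.28 on days 1, 3, 5, 7, 10 and 14. With the side as replicate block, 37 were higher on day 3 and 16 on day 14, and no count moved by more than 1.5 times. Sides do not pair across days: right minus left differences correlated over genes at r between -0.19 and 0.35, with 6 of 21 pairs of days over 0.1. With 2 arrays a day, no sham animals and no detection call, small differences and low signals are the least certain.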
